A study of Parasteatoda tepidariorum with 20 samples.

Results

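Whole embryos of *Parasteatoda tepidariorum*, the common house spider, were compared between the end and the beginning of stage (st) 5, the period in which the cumulus migrates. The members were the 4 RNA-Seq libraries labelled st5 late (36-37 h after egg laying, 2 libraries) and st5 early (31-32 h after egg laying, 2 libraries), of 20 libraries over 10 stages in all. Every library came from poly(A) mRNA of 10 to 100 pooled, untreated whole embryos of the Osaka isolate kept at 25 °C, and the 2 series of stages came from 2 pairs of parents. Series 1 and series 2 are therefore replicates that differ in parents and in the pool of embryos.

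Before cumulus migration the embryo of this spider carries a germ disc, a radially symmetric sheet of cells on one side of the yolk. The cumulus is a small group of mesenchymal cells that forms at the centre of the disc, secretes the BMP ligand Decapentaplegic and moves below the surface epithelium towards the rim. Where it arrives, the radial symmetry breaks and the dorsoventral axis becomes visible. Hedgehog signalling from the rim, the future anterior side, is needed for this movement and for patterning along the anterior-posterior axis.

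Abundance was given as RPKM, reads scaled to exon length and library total, so that levels can be set side by side between genes and libraries. The read totals behind the values were 13259081 and 9384547 in the st5 late libraries, against 12046366 and 10761796 in the st5 early libraries, within the range of 9160802 to 17019009 over all 20 libraries. A gene model was tested where it reached 1 RPKM in at least 2 of the 20 libraries. A change is the difference in log2(RPKM + 1), st5 late minus st5 early, and a gene model was called where limma's adjusted p over the 13375 gene models tested was under 0.05. On this scale the change of a gene with few reads appears smaller than it is.

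Between st5 early and st5 late, 116 gene models changed, which is 0.867% of those tested. Of these, 57 were higher at st5 late (0.426%) and 59 were lower (0.441%), and 113 changed by at least 1 on the log2 scale. The median change over all gene models tested was 0.013, and 1089 had an unadjusted p under 0.05. All 116 moved the same way in both series. In none of the 116 did the st5 late and st5 early libraries overlap, but this also held for 23.1% of all gene models tested on the higher side and 19.3% on the lower side. With the pair of parents as a block, 225 gene models were called (1.68%), 128 higher and 97 lower, and all 116 were among them. The count fell to 35 without the series 1 library of st5 late and to 67 without the series 2 library of st5 late, and was 72 without the series 1 library of st5 early and 37 without that of series 2. Of the 116, 28 were called whichever of the 4 libraries was left out. A fit of the 4 st5 libraries alone called 0, with 1741 at an unadjusted p under 0.05.

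**Figure D1:**
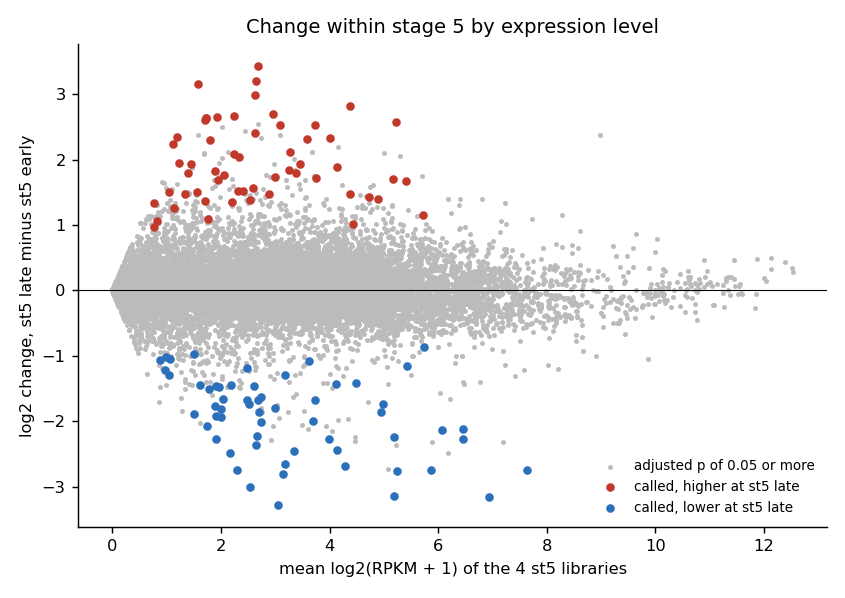
Change in log2(RPKM + 1), st5 late minus st5 early, against the mean log2(RPKM + 1) of the 4 st5 libraries, 1 point for each of 13375 gene models. The 57 called higher (red) and the 59 called lower (blue) lie at low and middle levels, and most gene models lie near 0.

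The strongest named rises took in transcription factors of the ectoderm, signalling proteins, ubiquitin ligases and metabolic enzymes. The named falls took in kinesin heavy chains, ubiquitin ligases, histones and a myotubularin-related phosphatase. These 24 gene models are the 12 largest rises and the 12 largest falls among called gene models with a name. In each of the 4 leave-outs 9 of them stayed called: vitamin K-dependent protein C-like, Rnf220, gooseberry, achaete-scute homolog 1-like, histidine ammonia-lyase, orthodenticle, Wnt5 (aug3.g10820), RHC1A and carbonic anhydrase 1. The other 15 lost the call in at least 1 leave-out.

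**Figure D2:**
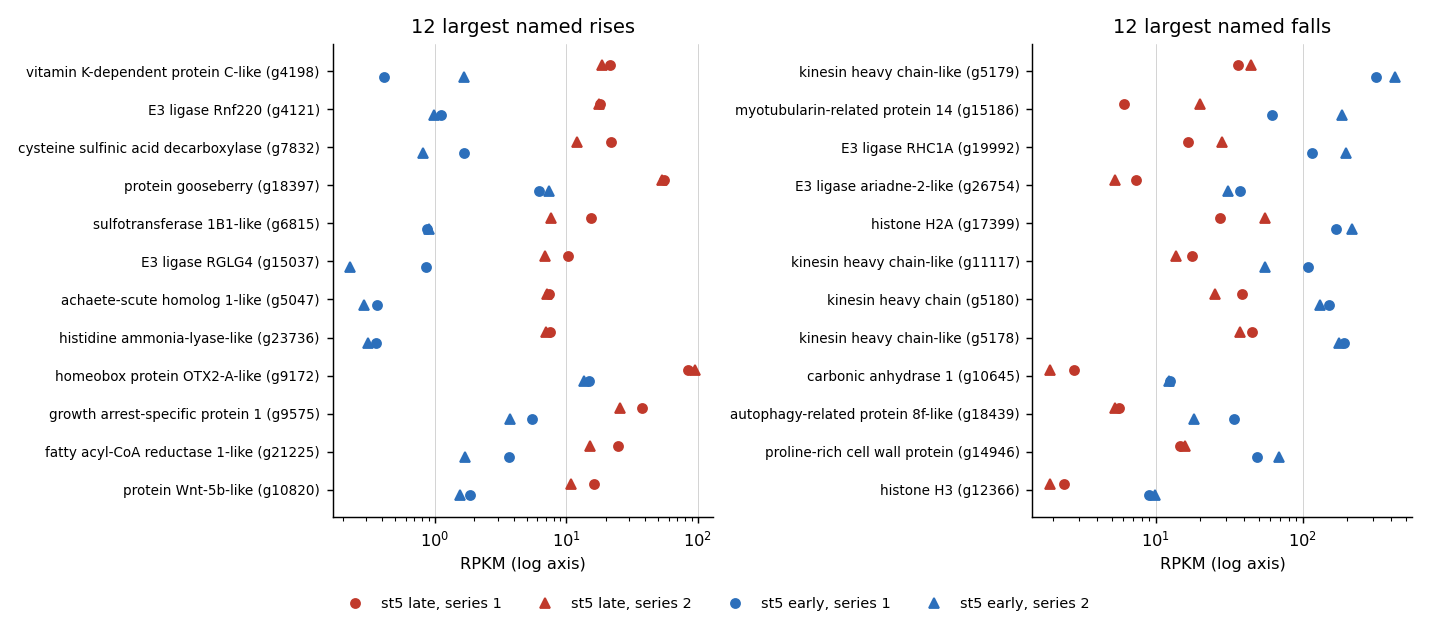
RPKM (log axis) of the 12 largest named rises (left) and the 12 largest named falls (right) in st5 late (red, upper points of each row) and st5 early (blue, lower points), with circles for series 1 and triangles for series 2. In all 24 rows the red and blue points are apart, and for myotubularin-related protein 14 both series 2 points lie to the right of the series 1 points of the same stage.

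Among transcription factors, orthodenticle rose. This homeobox gene, described in the table as OTX2-A-like (aug3.g9172, scaffold 996, 78536-126829, plus strand of assembly Ptep_1.0), patterns the head in insects and spiders. It stood at 83.6 and 95.8 RPKM in the st5 late libraries, against 14.9 and 13.7 RPKM in the st5 early libraries. The change was 2.57 (SE 0.28, adjusted p = 0.00038), and the gene stayed called whichever library was left out. Over the whole series its mean was 0.732 RPKM at st4 and 68.8 RPKM at st6, so that st5 late held its highest mean, 89.7 RPKM.

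The gene model described as gooseberry (aug3.g18397, scaffold 2837, 14826-41178, plus strand), a paired-type factor named for a segment polarity gene of *Drosophila*, followed closely. It was at 55.3 and 53.1 RPKM at st5 late, against 6.22 and 7.45 RPKM at st5 early. The libraries of each stage lay close together, and the change of 2.82 (SE 0.31, adjusted p = 0.00038) was kept in each of the 4 leave-outs. Its mean was also highest at st5 late, and reached 47.7 RPKM at st6 and 22.7 RPKM at st7.

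Another factor, achaete-scute homolog 1-like (aug3.g5047, scaffold 613, 168625-181484, minus strand), belongs to a family of bHLH factors that promote neural fate in *Drosophila*. It stood at 7.35 and 7.13 RPKM at st5 late, against 0.363 and 0.290 RPKM at st5 early, where only 7 and 5 reads covered it. The change was 2.64 (SE 0.28, adjusted p = 0.00038). It had been detected before, with means of 2.77 RPKM at st2 and 2.37 RPKM at st3, and was at 0.0809 RPKM at st4.

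Further factors rose from lower levels or by less. Sal-like protein 1 (aug3.g3675), a spalt-type zinc finger factor, was at 48.9 and 37.3 RPKM at st5 late, against 15.5 and 14.9 RPKM at st5 early, a change of 1.43 (SE 0.27, adjusted p = 0.020). Its mean was highest at st5 late, and its call was lost whichever library was left out (adjusted p of 0.059 to 0.28).

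Both called SoxB-type factors rose. Sox-2 (aug3.g11061) had 6.45 and 6.98 RPKM at st5 late, against 1.27 and 1.25 RPKM at st5 early (change 1.77, adjusted p = 0.0036). Sox-21-B-like (aug3.g2666) had 4.19 and 3.60 RPKM at st5 late, against 0.660 and 0.185 RPKM at st5 early (change 1.80, adjusted p = 0.047). The call of Sox-2 was lost only without the series 2 library of st5 early (adjusted p = 0.054), and that of Sox-21-B-like in each of the 4 leave-outs (0.099 to 0.43).

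A Hox-A5-like gene model (aug3.g15606) was at 3.88 and 3.27 RPKM at st5 late, from 47 and 28 reads, against 0.273 and 0.102 RPKM at st5 early, from 3 reads and 1 read. Its change was 1.95 (adjusted p = 0.020) and was also lost in each of the 4 leave-outs (0.086 to 0.22). Zinc finger protein 37-like (aug3.g9318) had 85 and 56 reads at st5 late and 0 in both st5 early libraries. Set against a floor of 3 reads per st5 early library, it was at least 23.5-fold higher.

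In the families of these factors most members were not called. Over all gene models tested, 0.426% were called higher and 0.441% lower. Of 126 homeobox factors tested, 3 were called higher and 0 lower, with a median change of 0.01. Of 36 forkhead, T-box, GATA and Sox factors, 2 were called higher and 0 lower, with a median of 0.08. Of 45 basic helix-loop-helix factors, 1 was called higher and 0 lower, and of 23 zinc finger developmental factors again 1 was called higher and 0 lower.

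With the pair of parents as a block, 5 further members of these 4 lists were called, all higher at st5 late. One, HES-1-A, belongs also to the Notch list, and Sox-13 (aug3.g13250) changed by 1.49 (adjusted p = 0.063, and 0.047 with the block). Twist, a bHLH factor of mesoderm, was at 7.90 and 4.02 RPKM at st5 late, against 0.754 and 0.389 RPKM at st5 early (aug3.g14287, change 2.10, adjusted p = 0.14, and 0.038 with the block). GATA-C was at 3.56 and 5.12 RPKM at st5 late, against 0.645 and 0.278 RPKM at st5 early (aug3.g20514, change 1.87, adjusted p = 0.11, and 0.047 with the block). Both genes had groups that did not overlap, and series that differed within a stage. Hox-B4a-like (aug3.g1787), chosen after its values were seen, changed by 2.38 (adjusted p = 0.087, and 0.043 with the block).

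The other developmental factors looked up by name did not pass the test. Hunchback, a gap factor, stood at 15.5 and 19.7 RPKM at st5 late, against 18.7 and 17.5 RPKM at st5 early. Odd-paired was at 40.4 and 51.1 RPKM at st5 late, against 53.8 and 69.9 RPKM at st5 early. MSH-D-like (aug3.g15189), looked up as an msx gene, was at 40.3 and 51.2 RPKM at st5 late, against 10.2 and 20.5 RPKM at st5 early. Its groups did not overlap, but it was not called. MSX-2-like (aug3.g4533) was at most 0.446 RPKM in every st5 library, and MSX-2 (aug3.g7174) was at 0 in all of them. Labial, Distal-less and the 2 snail gene models had changes between -0.76 and -0.62. Both GATA-4 models had groups that did not overlap, in opposite directions. The more abundant (aug3.g26874) was at 26.9 and 49.6 RPKM at st5 late, against 54.2 and 67.8 RPKM at st5 early. The other (aug3.g8337) was at 6.73 and 8.52 RPKM at st5 late, against 5.56 and 4.16 RPKM at st5 early. Caudal, the gene model described as E30-like that carries the name engrailed, and both Lhx1-like gene models were at most 1.02 RPKM in every st5 library. No table used here paired the names even-skipped, brachyury, goosecoid or Ets4 with a gene model.

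**Figure D3:**
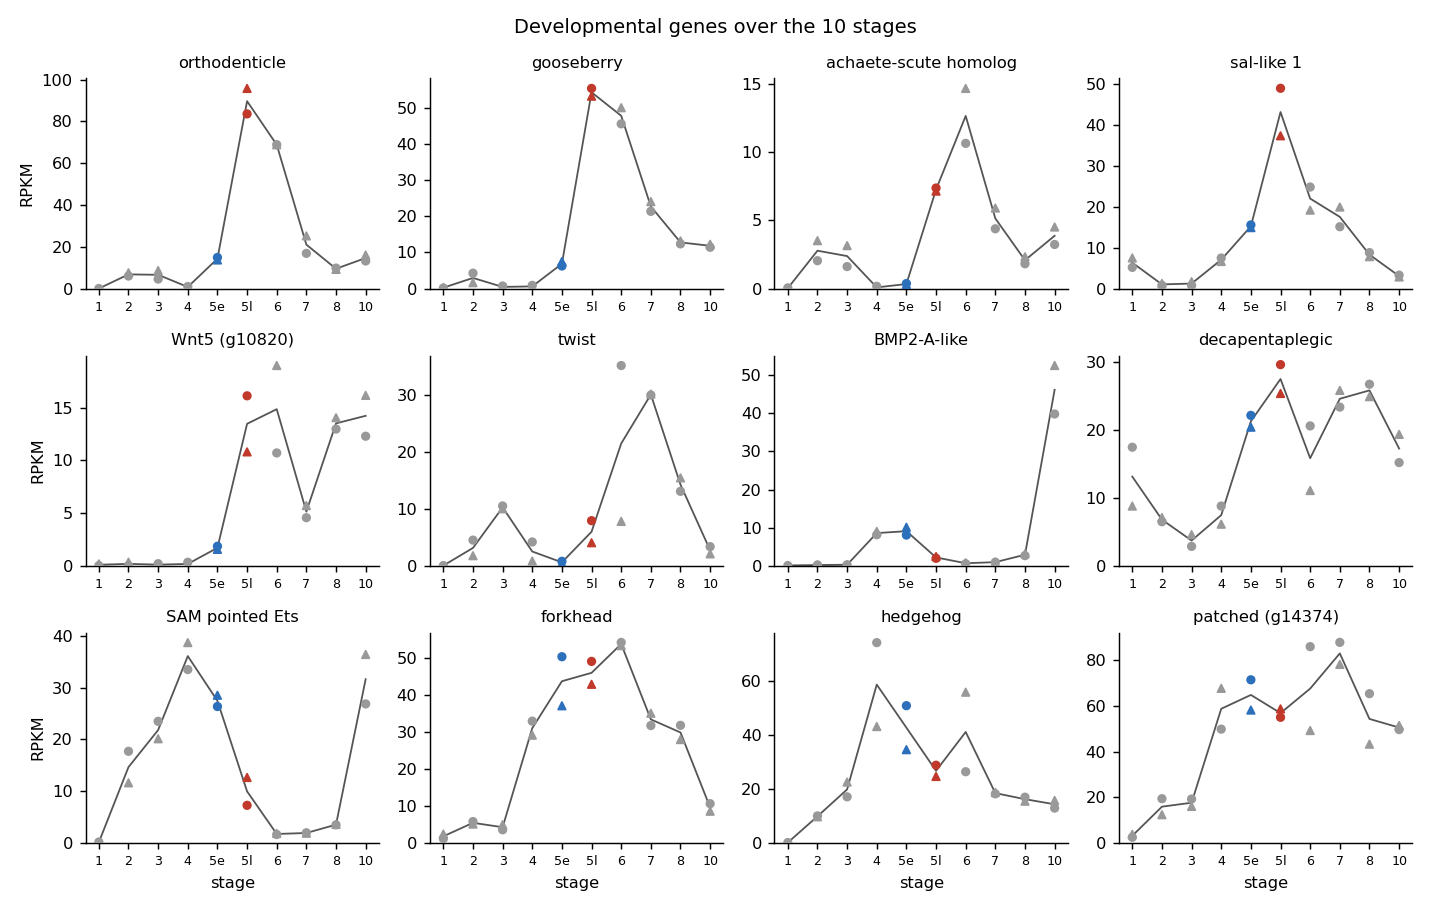
RPKM of 12 developmental genes over the 10 stages (5e, st5 early; 5l, st5 late), with circles for series 1, triangles for series 2 and a line through the stage means; st5 late is red and st5 early blue. Orthodenticle, gooseberry and sal-like 1 have their highest mean at st5 late, whereas BMP2-A-like and the SAM pointed Ets factor are low from st5 late to st8 and higher again at st10.

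Of the genes known to mark or guide the cumulus, decapentaplegic, forkhead, hedgehog, patched and the fgf8-like gene model did not pass the test. In the same signalling families another BMP ligand and an Ets factor fell, and no table used here ties these 2 gene models to the cumulus. Ets4, also looked up as a cumulus gene, was paired with no gene model, and whether the Ets factor that fell is Ets4 was not tested. In these whole-embryo libraries a smaller number of cells of a type and less RNA per cell cannot be told apart, and the position of the cumulus is not measured.

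Decapentaplegic (aug3.g16926, described as a bone morphogenetic protein) was at 29.6 and 25.4 RPKM at st5 late, against 22.1 and 20.4 RPKM at st5 early. The st5 late libraries lay above the st5 early ones, but the change of 0.35 (SE 0.33) did not pass (adjusted p = 1, and 0.88 with the block). Short gastrulation, the extracellular antagonist of this ligand, was at 23.0 and 20.5 RPKM at st5 late, against 24.6 and 24.7 RPKM at st5 early (aug3.g23966, change -0.17, SE 0.37). Mad and the Smad4-like gene model, which carry the signal into the nucleus, had changes of -0.27 and 0.12.

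BMP2-A-like (aug3.g15032, scaffold 2022, 170150-223544, minus strand), another ligand of the BMP family, fell. It was at 1.91 and 2.38 RPKM at st5 late, against 8.02 and 10.1 RPKM at st5 early. The change was -1.67 (SE 0.21, adjusted p = 0.0011), and it was called in each of the 4 leave-outs (0.0087 to 0.034). Its mean was 0.227 RPKM at st3 and 8.55 RPKM at st4, fell further to 0.624 RPKM at st6 and was 46.2 RPKM at st10.

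Of 38 BMP and TGF-beta gene models tested, BMP2-A-like was the only one called, beside 0.441% of all gene models tested called lower. The median change of the 38 was 0.00. With the block, 2 were also called higher. These were a BMP and activin membrane-bound inhibitor homolog (aug3.g18541, change 1.34, adjusted p = 0.11, and 0.029 with the block) and a kielin/chordin-like protein (aug3.g6492, change 1.24, adjusted p = 0.14, and 0.050 with the block), both extracellular or membrane-bound modulators named for inhibitors or partners of BMP ligands.

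The SAM pointed domain-containing Ets factor (aug3.g4238, scaffold 540, 171886-200241, plus strand) was at 7.24 and 12.6 RPKM at st5 late, against 26.4 and 28.6 RPKM at st5 early. The change was -1.42 (SE 0.27, adjusted p = 0.020). It remained called without the series 2 library of st5 late (adjusted p = 0.023), whereas the other 3 leave-outs gave 0.095 to 0.33. The mean was highest at st4, with 36.2 RPKM, and 1.69 RPKM at st6. It was the only one called of 32 FGF, EGF and receptor tyrosine kinase genes with Ets factors. Over all gene models tested, 0.441% were called lower. The fgf8-like gene model (aug3.g5611) was at 25.6 and 29.4 RPKM at st5 late, against 19.4 and 15.3 RPKM at st5 early (adjusted p = 0.91).

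Forkhead (aug3.g6985), a factor of endoderm and cumulus mesenchyme, was at 49.0 and 42.8 RPKM at st5 late, against 50.2 and 37.0 RPKM at st5 early, with overlapping groups. The ligand hedgehog (aug3.g4322) was at 28.8 and 24.6 RPKM at st5 late, against 50.8 and 34.5 RPKM at st5 early. Its groups did not overlap, but the change of -0.64 (SE 0.33) did not pass (adjusted p = 0.71, and 0.57 with the block). Patched, the receptor of Hedgehog, is split over 2 gene models, and the more abundant of them (aug3.g14374) was at 55.1 and 58.8 RPKM at st5 late, against 71.5 and 58.2 RPKM at st5 early.

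All 7 gene models of the Hedgehog pathway that were tested had a change below 0, with a median of -0.55 and a range of -0.68 to -0.18, and 0 were called. Of all gene models tested, 51.6% had a change above 0. The less abundant patched model (aug3.g24717) was at 10.1 and 12.2 RPKM at st5 late, against 18.2 and 10.6 RPKM at st5 early. In series 2 both patched models were slightly higher at st5 late, so that the series did not move together there. The transducer smoothened (aug3.g8490) changed by -0.45 and the transcription factor cubitus interruptus (aug3.g13321) by -0.64. Cubitus interruptus was at 77.1 and 74.3 RPKM at st5 late, against 141 and 98.9 RPKM at st5 early, with no call (adjusted p = 0.46). Its groups did not overlap, as on the lower side in 19.3% of all gene models tested.

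Among Wnt ligands, secreted glycoproteins with many roles in axis formation, Wnt5 rose. It is split over 2 gene models. The first (aug3.g10820, described as Wnt-5b-like, scaffold 1221, 240656-242739, plus strand) was at 16.1 and 10.8 RPKM at st5 late, against 1.84 and 1.54 RPKM at st5 early, a change of 2.41 (SE 0.30, adjusted p = 0.0011) that was kept in each of the 4 leave-outs (0.0080 to 0.023). A pseudocount of 0.1 and voom weights gave it adjusted p values of 0.12 and 0.069. The second (aug3.g1632) was at 32.1 and 20.3 RPKM at st5 late, against 8.43 and 2.96 RPKM at st5 early, and changed by 2.12 (adjusted p = 0.12, and 0.039 with the block).

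Wnt8 (aug3.g5617), which has a role in forming the posterior in this spider, was at 25.4 and 26.7 RPKM at st5 late, against 12.4 and 13.4 RPKM at st5 early. The groups were well apart, but the change of 0.97 (SE 0.23) just missed the threshold (adjusted p = 0.066, and 0.050 with the block, where it was called). Of 26 Wnt pathway gene models tested, 1 was called higher and 0 lower, beside 0.426% and 0.441% of all gene models tested. The median change of the 26 was 0.24.

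In the Notch pathway, the notch-regulated ankyrin repeat-containing protein (aug3.g15506), an inhibitor of Notch signalling in vertebrates, was at 38.2 and 28.3 RPKM at st5 late, against 11.9 and 5.48 RPKM at st5 early. It changed by 1.89 (SE 0.37, adjusted p = 0.025). The call was kept without the series 1 library of st5 early and lost in the other 3 leave-outs (0.083 to 0.37). HES-1-A (aug3.g17723), a bHLH factor of the family through which Notch acts, changed by 1.34 (adjusted p = 0.054, and 0.034 with the block). Delta itself (aug3.g25248) was at 49.4 and 53.1 RPKM at st5 late, against 59.3 and 63.3 RPKM at st5 early, and was not called. Of 25 gene models of this list 1 was called higher and 0 lower, beside 0.426% and 0.441% of all gene models tested.

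Growth arrest-specific protein 1 (aug3.g9575), which in vertebrates is a membrane protein that binds Hedgehog, was at 37.4 and 25.6 RPKM at st5 late, against 5.49 and 3.71 RPKM at st5 early. The change was 2.53 (SE 0.38, adjusted p = 0.0036), and the mean was 147 RPKM by st10.

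The largest named rise was that of vitamin K-dependent protein C-like (aug3.g4198), by its name a serine protease. It had 21.4 and 18.6 RPKM at st5 late, against 0.409 and 1.68 RPKM at st5 early, where 3 and 11 reads covered it. The change was 3.43 (SE 0.38, adjusted p = 0.00039). Its mean was 87.2 RPKM at st6, the highest of the 10 stages.

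Of 235 ubiquitin ligases and adaptors, which tag proteins for breakdown, 2 were called higher and 5 lower, beside 0.426% and 0.441% of all gene models tested, and the median change was 0.01. This list, like those of amino acid breakdown, autophagy and kinesins, was drawn up after values were seen.

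The ligase Rnf220 (aug3.g4121, scaffold 531, 588915-690308, minus strand) had the smallest adjusted p of all gene models tested, 2.4e-05. It was at 18.0 and 17.6 RPKM at st5 late, against 1.12 and 0.992 RPKM at st5 early, a change of 3.20 (SE 0.24). Its mean was 60.9 RPKM at st1 and 1.23 RPKM at st4, so that the rise followed a higher level in the earliest stages. RGLG4 (aug3.g15037) was at 10.3 and 6.93 RPKM at st5 late, against 0.858 and 0.226 RPKM at st5 early (change 2.65, adjusted p = 0.0022).

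RHC1A (aug3.g19992, scaffold 3552, 44726-50838, plus strand) fell. It was at 16.6 and 28.1 RPKM at st5 late, against 115 and 195 RPKM at st5 early, a change of -2.74 (SE 0.35, adjusted p = 0.0011). It too was an early transcript, with a mean of 3737 RPKM at st2. Ariadne-2-like (aug3.g26754) was at 7.37 and 5.28 RPKM at st5 late, against 37.4 and 30.9 RPKM at st5 early (change -2.27, adjusted p = 0.0036), but was near absent at st1, at 0.117 RPKM, and highest at st3.

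Kinesin heavy chains, motor proteins that carry cargo along microtubules, were lower in 4 gene models. Of 37 kinesin gene models tested, 4 were called lower and 0 higher, beside 0.441% and 0.426% of all gene models tested, and the median change of the 37 was -0.07. The 4 are all described as kinesin heavy chain or kinesin heavy chain-like, and 3 of them (aug3.g5178, aug3.g5179 and aug3.g5180) lie next to each other on scaffold 626 between 43172 and 202863.

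The most abundant of them at st5 early, aug3.g5179, was at 36.2 and 44.2 RPKM at st5 late, against 314 and 424 RPKM at st5 early, a change of -3.16 (SE 0.49, adjusted p = 0.0048). Its neighbour aug3.g5178 was at 45.3 and 37.2 RPKM at st5 late, against 189 and 176 RPKM at st5 early (change -2.12, adjusted p = 0.011). The other neighbour, aug3.g5180, was at 38.8 and 25.1 RPKM at st5 late, against 151 and 130 RPKM at st5 early (change -2.13, adjusted p = 0.012). In all 3 both st5 late libraries lay below both st5 early libraries, as in 19.3% of all gene models tested.

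The fourth, aug3.g11117 on scaffold 1264, was at 17.7 and 13.8 RPKM at st5 late, against 109 and 55.3 RPKM at st5 early (change -2.24, adjusted p = 0.045). All 4 were under 0.33 RPKM on average at st1, had their highest mean at st4, with 664 RPKM for aug3.g5179, and were at or under 0.22 RPKM at st10. The calls of aug3.g5178, aug3.g5180 and aug3.g11117 were lost in each of the 4 leave-outs (adjusted p of 0.050 to 0.31 over the 3), and that of aug3.g5179 without the series 1 library of st5 late (0.073) or the series 2 library of st5 early (0.084). The kinesin heavy chain model aug3.g638, chosen after its values were seen, was at 33.2 and 35.4 RPKM at st5 late, against 29.3 and 29.9 RPKM at st5 early. Copies of near-identical sequence could have shared reads or lost them to the uniqueness filter, so that the split between these models is uncertain.

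Histones gave 2 calls of 18, both lower, beside 0.441% of all gene models tested. Histone H2A (aug3.g17399) was at 27.3 and 55.0 RPKM at st5 late, against 169 and 215 RPKM at st5 early (change -2.27, SE 0.37, adjusted p = 0.0080). Histone H3 (aug3.g12366) was at 2.37 and 1.90 RPKM at st5 late, against 8.97 and 9.85 RPKM at st5 early (change -1.73, SE 0.36, adjusted p = 0.039). The call of H3 was lost whichever st5 library was left out. It was also lost with a pseudocount of 0.1 (adjusted p = 0.12) and with voom weights (0.36). The call of aug3.g17399 was kept in 2 leave-outs and lost in the others. It was kept with a pseudocount of 0.1 (adjusted p = 0.012) and with voom weights (0.017). Most histone RNA lay elsewhere, since a second H2A model (aug3.g7601) was at 1511 and 1793 RPKM at st5 late, against 1478 and 1657 RPKM at st5 early, and was not called. Histone copies are also alike in sequence, and the libraries were made from poly(A) RNA.

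Myotubularin-related protein 14 (aug3.g15186), in other animals a phosphatase of phosphoinositide lipids, shows how far the series can differ. It was at 6.07 and 20.0 RPKM at st5 late, against 61.3 and 184 RPKM at st5 early, with series 2 about as far above series 1 at both times. The change was -3.14 in both series, with an adjusted p of 0.049, and 0.00018 with the block. The call was lost without the series 1 library of st5 late (0.55) or the series 2 library of st5 early (0.51).

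Carbonic anhydrase 1 (aug3.g10645) was at 2.78 and 1.91 RPKM at st5 late, against 12.4 and 12.2 RPKM at st5 early (change -2.00, SE 0.29, adjusted p = 0.0027). The repetitive proline-rich protein (aug3.g14946) was at 14.6 and 15.9 RPKM at st5 late, against 48.8 and 68.3 RPKM at st5 early (change -1.85, adjusted p = 0.011). Both were already abundant at st1, with means of 534 and 1848 RPKM.

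Of 24 autophagy gene models tested, 2 were called higher and 1 lower, beside 0.426% and 0.441% of all gene models tested. Among them were 2 ubiquitin-like Atg8 proteins, which coat the forming autophagosome. Autophagy-related protein 8f-like (aug3.g18439) was at 5.65 and 5.24 RPKM at st5 late, against 33.8 and 18.1 RPKM at st5 early (change -2.00, adjusted p = 0.0054). The GABA receptor-associated protein (aug3.g17777), of the same family, was at 92.7 and 65.7 RPKM at st5 late, against 41.3 and 28.7 RPKM at st5 early (change 1.16, adjusted p = 0.043). The call of 8f-like was kept only without the series 2 library of st5 early (0.054 to 0.074 in the other 3 leave-outs) and was lost with a pseudocount of 0.1 (0.21) and voom weights (0.12). That of the GABA receptor-associated protein was lost in each of the 4 leave-outs (0.053 to 0.50).

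Of 31 enzymes of amino acid breakdown tested, 5 were called higher and 0 lower, beside 0.426% and 0.441% of all gene models tested, and the median change was 0.41. Since the list was shaped after values were seen, these counts describe it and test nothing. The list holds the enzymes of histidine, tyrosine, tryptophan and sulphur amino acid breakdown.

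For histidine, the first enzyme, histidine ammonia-lyase (aug3.g23736, scaffold 63, 57236-98920, plus strand), was at 7.58 and 6.98 RPKM at st5 late, against 0.360 and 0.308 RPKM at st5 early. The change was 2.63 (SE 0.25, adjusted p = 0.00014) and was kept in each of the 4 leave-outs. The second enzyme, urocanate hydratase (aug3.g12777), was at 28.2 and 19.4 RPKM at st5 late, against 7.19 and 5.68 RPKM at st5 early (change 1.72, SE 0.30, adjusted p = 0.011).

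The later steps moved the same way without a call. The adjacent urocanate hydratase model (aug3.g12776) changed by 1.31, imidazolonepropionase (aug3.g18588) by 0.91, and the 2 formimidoyltransferase-cyclodeaminases (aug3.g21955 and aug3.g16425) by 1.61 and 1.25, with adjusted p values of 0.13 to 0.24. With the block, aug3.g16425 was called (0.050). In these 6 gene models the st5 late libraries lay above the st5 early ones, as in 23.1% of all gene models tested.

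For tyrosine, 4-hydroxyphenylpyruvate dioxygenase (aug3.g12367) was at 19.6 and 21.1 RPKM at st5 late, against 3.88 and 5.45 RPKM at st5 early (change 1.93, SE 0.41, adjusted p = 0.042). A second model of that name (aug3.g23731) was at 6.19 and 5.57 RPKM at st5 late, against 7.26 and 5.22 RPKM at st5 early. Homogentisate 1,2-dioxygenase, the next step, changed by 0.13.

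Cysteine sulfinic acid decarboxylase (aug3.g7832), an enzyme of taurine synthesis, was at 22.0 and 12.1 RPKM at st5 late, against 1.68 and 0.806 RPKM at st5 early (change 2.98, SE 0.51, adjusted p = 0.011). The semialdehyde decarboxylase of tryptophan breakdown (aug3.g16352) was at 6.73 and 5.16 RPKM at st5 late, against 1.71 and 0.706 RPKM at st5 early (change 1.68, adjusted p = 0.042). Of the 5 calls, only that of histidine ammonia-lyase was kept in all 4 leave-outs. Those of 4-hydroxyphenylpyruvate dioxygenase and the semialdehyde decarboxylase were kept in none (0.16 to 0.26 and 0.063 to 0.44).

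**Figure D4:**
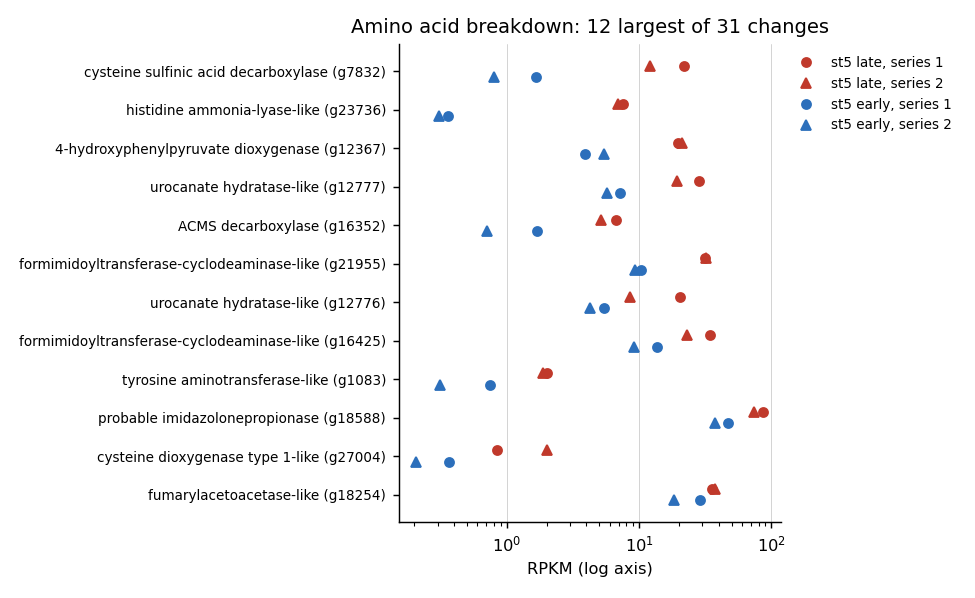
RPKM (log axis) of the 12 amino acid breakdown genes with the largest change of the 31 tested, in st5 late (red, upper points) and st5 early (blue, lower points), with circles for series 1 and triangles for series 2. The 5 called genes are the upper 5 rows, from cysteine sulfinic acid decarboxylase to ACMS decarboxylase (2-amino-3-carboxymuconate-6-semialdehyde decarboxylase).

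Of 196 lipid and conjugating enzymes tested, 5 were called higher and 2 lower, beside 0.426% and 0.441% of all gene models tested. Fatty acyl-CoA reductase 1-like (aug3.g21225), which makes fatty alcohols, was at 24.6 and 15.2 RPKM at st5 late, against 3.65 and 1.69 RPKM at st5 early (change 2.53, SE 0.47, adjusted p = 0.019). Sulfotransferase 1B1-like (aug3.g6815) was at 15.4 and 7.66 RPKM at st5 late, against 0.868 and 0.910 RPKM at st5 early (change 2.66, SE 0.51, adjusted p = 0.023), and was at a mean of 130 RPKM by st10. The 2 that fell were glutathione S-transferase 1-1 (aug3.g9709, change -1.46, adjusted p = 0.023) and long-chain-fatty-acid--CoA ligase 1 (aug3.g1809, change -1.47, adjusted p = 0.019). Each of these 4 calls was kept in 1 of the 4 leave-outs. Of 278 transporters, 3 were called higher and 1 lower, and of 79 proteases and inhibitors, 3 higher and 0 lower.

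Bcl-2-like protein 1 (aug3.g6694), of the family that controls cell death through the mitochondrion, was at 16.9 and 21.4 RPKM at st5 late, against 4.07 and 3.22 RPKM at st5 early (change 2.11, adjusted p = 0.011). The call was lost in each of the 4 leave-outs (0.058 to 0.15) and with voom weights (0.083). Its mean was 83.4 RPKM at st1 and 0.480 RPKM at st4. Of 76 heat shock proteins and chaperonins, 1 was called higher and 0 lower, beside 0.426% and 0.441% of all gene models tested. This was a heat shock 70 kDa protein Ab-like model (aug3.g5255). It was at 13.1 and 9.72 RPKM at st5 late, against 3.38 and 3.44 RPKM at st5 early (change 1.48, adjusted p = 0.033). Its call was lost in each of the 4 leave-outs.

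Families tied to cell movement and growth held no call. This was so for 73 cadherins and junction proteins, 83 extracellular matrix and integrin genes, 36 guidance molecules, 11 Toll receptors, 130 cell cycle genes, 79 cytosolic ribosomal proteins and 63 mitochondrial energy genes. Their medians lay between -0.01 and 0.06. Since 0.867% of all gene models tested were called, 0 calls do not set lists of these sizes apart. With the block, 1 extracellular matrix gene was called, higher at st5 late.

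Markers of other cell types held no call. Both troponin T-like models were at 0 in the 4 libraries, and the summed level of the muscle list was 40.2 and 37.4 RPKM at st5 late, against 38.9 and 39.0 RPKM at st5 early. The 9 hemocyanins summed to 1.06 and 0.790 RPKM at st5 late, against 0.637 and 1.17 RPKM at st5 early. Germline and small RNA genes summed to 1103 and 956 RPKM at st5 late, against 1507 and 1163 RPKM at st5 early, and these sums did not overlap. The sums are weighted to abundant members. The median change of the 20 germline gene models tested was -0.01, and 10 of the 20 had a change above 0. Of the gene models tested, 0 of 20 germline, 0 of 19 muscle, 0 of 9 hemocyanin, 0 of 23 nerve, 0 of 81 yolk use, 0 of 17 cuticle and 0 of 7 transposon-derived ones were called. Over all gene models tested 0.867% were called, so that 0 calls do not set lists of these sizes apart. The part of such cells in the changes above was not tested.

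Set against the other 8 stages, the gene models that fell were mostly higher before st5. Of the 59, 54 had their highest mean before st5 early, as had 63.4% of all gene models tested. Along st4, st5 early, st5 late and st6, 49 of the 59 were lower at each step, beside 2548 of all 13375. They differed in their level at st1. There, 24 of the 59 were at 1 RPKM or more, beside 10654 of all 13375 gene models tested. These 24 had a median of 318 RPKM at st1 and 455 RPKM at st2. The other 35 were under 1 RPKM at st1, with a median of 0.0489 RPKM, which was 33.8 RPKM at st4, 10.6 RPKM at st5 early and 2.14 RPKM at st5 late. By st10, 51 of the 59 were under 1 RPKM in both libraries, compared with 16.4% of all gene models tested.

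Of the 57 gene models that rose, 43 had their highest mean after st5 late, 5 at st5 late and 9 before st5 early, beside 29.7% of all gene models tested with their highest mean after st5 late. By the mean of the series 46 of the 57 were higher at st6 than at st5 late, with 46 in series 1 and 38 in series 2. For 39 of the 57 the mean was under 1 RPKM at st1, beside 2721 of all 13375 gene models tested. At every stage up to st5 early 16 of the 39 stayed under 1 RPKM, beside 1016 of the 2721. The other 18 of the 57 had a median of 61.2 RPKM at st1, 2.75 RPKM at st4 and 19.8 RPKM at st5 late, as in Rnf220 and bcl-2-like protein 1. The direction of the step within st5 is fixed by the choice of these sets, and the neighbouring steps share its libraries.

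**Figure D5:**
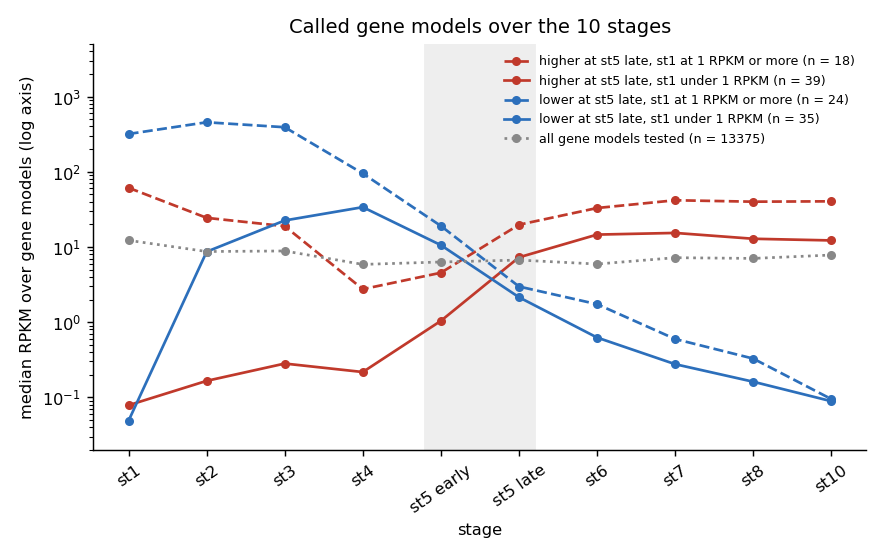
Median RPKM (log axis) over the 10 stages of gene models called higher (red) and lower (blue) at st5 late, split by whether their mean at st1 was at least 1 RPKM (dashed) or less (solid), with all 13375 gene models tested dotted; the 2 st5 stages are shaded. Both blue lines end near 0.09 RPKM at st10, and the dashed red line has its lowest point at st4.

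The table named fewer of the gene models that fell. Of the 57 that rose 45 had a descriptive name (78.9%), and of the 59 that fell 22 had one (37.3%), beside 73.2% of all gene models tested.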

How the data were processed

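Poly(A) mRNA of whole embryos was sequenced by the authors, who trimmed the reads, aligned them to assembly Ptep_1.0 with BLAT, filtered them by coverage, identity and uniqueness and used HTSeq 0.6.1p1 for stranded counting on AUGUSTUS models. The deposited values are RPKM for 27990 gene models in 20 libraries, and 0 further columns of values were present. Read totals and exon lengths were recovered from the steps of the RPKM values, with a length for 99.87% of the 21765 gene models above 0.

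Stages and series came from the labels. The test of changes was limma 3.58.1 (R 4.3.3; 10 stage means, eBayes with trend), run on log2(RPKM + 1). Gene models entered where 2 or more samples reached 1 RPKM, with Benjamini-Hochberg adjustment over 13375 gene models. An exact two-sided permutation test of 2 against 2 libraries cannot go below p = 0.333. Replicate numbers name the pair of parents. The differences between the series correlated between st5 late and st5 early (r = 0.698 over 13375 gene models), and the block was an alternative. The p-values measure the spread between these samples. Named were the 12 largest rises and 12 largest falls among called gene models with a name and the same direction in both series, developmental genes whatever their values, and called members of lists. Members and lists were chosen with earlier results of these data known, and the lists of amino acid breakdown, autophagy, ubiquitin ligases and kinesins were shaped after values were seen. Gene names beyond the table's descriptions came from RefSeq (CAS_Ptep_4.0), matched by gene ID, and none of its coordinates were used. The scripts were tested on simulated data. In reads simulated at a dispersion of 0.05 with 200 gene models changed 4-fold, the fit recovered 196 of them. Of its 222 calls 26 were false (11.7%), a larger share than the adjusted p threshold of 0.05. The 200 were drawn only from gene models well above the filter of 1 RPKM at both st5 stages, and libraries were simulated with no shared series difference. Recovery of changes in gene models near the floor was not simulated. Plots used matplotlib 3.10.9. The floor of 3 reads covers counting error only. One list of genes is not reported here.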

Additional observations from a re-analysis of the deposited data

How the results depend on the processing

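Against 116 gene models called, 24 of 24 genes named by size and 47 list entries called, the replicate block (the pair of parents) gave 225 gene models and 75 list entries, and leaving out both st6 samples gave 242 and 76. With only the 4 st5 samples all 3 counts were 0, with 1741 gene models at an unadjusted p under 0.05. The voom weights on recovered reads gave 42 gene models, 14 of the 24 genes and 19 list entries, and a pseudocount of 0.1 kept 13 of the 24. Leaving out each st5 replicate in turn gave 35 to 72 gene models, 10 to 18 of the 24 genes and 12 to 24 list entries. The other alternatives (no filter, RPKM of at least 5 in 2 samples, median-ratio scaling) stayed within 1.5 times of each count. All 24 genes kept their direction under every alternative, and the block lost none of the 116 calls. Median-ratio scaling moved the median change of all gene models from 0.013 to -0.008. The causes of these differences were not tested. Each stage has 2 libraries, and gene models with few reads at st5 early, such as achaete-scute homolog 1-like (7 and 5 reads), have imprecise levels there.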

Other observations

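Uncharacterized gene models held some of the clearest changes, and those named here were chosen after their values were seen. The gene model aug3.g15599 had 71 and 51 reads at st5 late and 0 in both st5 early libraries, as at every stage before, which makes it at least 20.4-fold higher at st5 late against a floor of 3 reads per st5 early library. It lies on scaffold 48 (593893-633970, minus strand), the scaffold that also holds the Hox-A5-like model, and its mean was 20.4 RPKM at st6 and 0.552 RPKM at st10. On the other side, aug3.g11119 was at 1.48 and 1.90 RPKM at st5 late, against 29.6 and 20.9 RPKM at st5 early, with an adjusted p of 5.3e-05. The gene model aug3.g24992 was at 1.46 and 0.719 RPKM at st5 late, against 19.0 and 12.5 RPKM at st5 early, with an adjusted p of 6e-05, and had a mean of 91.4 RPKM at st1.

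Some gene models that fell lay on the same stretch of a scaffold. Of the 59, 13 had another that fell within 50000 bases on the same scaffold, spread over 6 scaffolds and in part with other gene models between them, and 3 of the 13 are the kinesin heavy chains. Of the 57 that rose, 0 had another that rose so placed. Of all gene models tested, 79.7% had any other tested gene model within that distance, called or not. That share is an unlike measure and gives no expected number of called neighbours. Near-identical copies in a tandem array could share reads, and their part in the placement of gene models that fell was not tested.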
